A study of Homo sapiens with 4 samples.

Results

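CSTA, CSTB, CST3 and SLPI encode 4 small protease inhibitors, picked by symbol from the 26364 gene rows of a read count table. They were picked because CSTA and SLPI were nearly lost, and because CST3 moved between polysome fractions, in cells labelled as a Dicer1 knockout. Differences between the genotypes are therefore described here and not tested. All 4 rows were found. The cells were HCT116, a human colorectal carcinoma line. DICER1, the gene named in the knockout label, encodes the nuclease that makes mature microRNAs, and the other cells are labelled wild type. Cytoplasmic extracts were separated on sucrose gradients into heavy polysomes (mRNAs with 10 or more ribosomes) and light polysomes (9 or fewer). The 4 groups were heavy polysomes of the labelled knockout, heavy polysomes of the wild type, light polysomes of the labelled knockout and light polysomes of the wild type, with 1 library each. The labels name no treatment, do not say how or where the gene was altered, and do not say whether the altered cells are 1 clone.

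Cystatins block cysteine proteases of the papain family, such as the lysosomal cathepsins, by inserting a wedge of their own chain into the active site. CSTA (cystatin A) and CSTB (cystatin B) are stefins, which lack a signal peptide and act in the cytosol. CSTA is best known from squamous epithelium, where it is built into the cornified envelope, while CSTB is made in most tissues. CST3 (cystatin C) carries a signal peptide, is secreted by nearly all cells and is measured in blood as a marker of kidney filtration. SLPI (secretory leukocyte protease inhibitor) belongs to another family, the WAP domain proteins, and protects mucosal surfaces from the serine proteases of neutrophils. An mRNA can hold only as many ribosomes as its coding sequence has room for, so short mRNAs usually travel in light polysomes.

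The 4 mRNAs are all short. Coding lengths without the stop codon, in the canonical transcripts of GENCODE release 44 on GRCh38, were 294 nucleotides for CSTA, 294 for CSTB, 438 for CST3 and 396 for SLPI. CSTA lies on chromosome 3 from 122325248 to 122341969 on the plus strand and CSTB on the minus strand of chromosome 21 from 43772511 to 43776330. CST3 lies on chromosome 20 from 23626706 to 23638473 and SLPI on the same chromosome from 45252239 to 45254564, both on the minus strand. No exon of the 4 genes overlapped an exon of another annotated gene on either strand, and no stretch of 50 or more bases with at least 90% identity was found in another gene's transcript. No neighbour or near-identical copy was thus found that would share their reads.

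The library totals ran from 17457116 to 20933675 counts, and the ribosomal RNA row RNA45S5 held 2.61 to 5.97% of them, more in the labelled knockout than in the wild type in each fraction. DICER1 had 925 counts in labelled knockout heavy, 500 in wild type heavy, 889 in labelled knockout light and 547 in wild type light polysomes. Its mRNA was thus higher in the libraries labelled knockout, by 0.95 on the log2 scale in heavy polysomes and by 0.96 in light ones, which leaves unknown whether a working enzyme is made. All 7 epithelial markers searched, such as EPCAM and KRT19, had at least 477 counts in each library. Of 5 intestinal markers, CDX2 and KRT20 reached 50 counts, VIL1 was at 0 in each library and LGALS4 and CDH17 had 2 counts at most. Markers of endothelium, blood and neutrophils had no more than 16 counts in any library, and of 6 fibroblast markers COL1A1 alone had more than 10, with up to 911.

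CSTA was the member with the largest difference between the genotypes. It had 15 counts in labelled knockout heavy polysomes and 401 in wild type heavy polysomes. In light polysomes it had 59 counts in the labelled knockout and 1595 in the wild type. Both wild type libraries stood far above both libraries labelled knockout. As CPM, counts scaled to a common library size with TMM factors, heavy polysomes held 0.829 in the labelled knockout and 21.2 in the wild type. Light polysomes held 3.21 CPM in the labelled knockout and 72.4 in the wild type. On the log2 scale the labelled knockout differed from the wild type by -4.51 in heavy polysomes, with a 95% counting interval of -5.22 to -3.81, a 22.9-fold lower level. In light polysomes the difference was -4.45, with an interval of -4.82 to -4.08, a 21.9-fold lower level. Of the 10418 genes that reached 100 counts in at least 1 genotype in both fractions, 2 had a lower ratio in heavy and 2 in light polysomes. Intervals cover counting error only. They may be too narrow even for that, since reads that carry no molecular identifiers may be copies of 1 molecule. A lower level in a bulk library cannot tell fewer cells with the mRNA from less mRNA per cell.

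SLPI, the other inhibitor nearly lost, was a rare mRNA already in the wild type. It had 8 counts in labelled knockout heavy and 102 in wild type heavy polysomes, and 15 counts in labelled knockout light and 136 in wild type light polysomes. No library labelled knockout reached the counts of a wild type library. The log2 ratio was -3.33 in heavy polysomes, with an interval of -4.28 to -2.39, and so 10.1-fold lower. In light polysomes it was -2.77, with an interval of -3.50 to -2.04, and so 6.83-fold lower. The counting intervals of the 2 fractions overlap.

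CSTB, the paralogue of CSTA with a coding sequence of the same length, showed no such loss. The aligned coding sequences of the pair were identical at 60.5% of positions. CSTB had 1755 counts in labelled knockout heavy, 1726 in wild type heavy, 4701 in labelled knockout light and 5536 in wild type light polysomes. The fractions separated its libraries and the genotypes did not. Its log2 ratio, labelled knockout over wild type, was 0.09 in heavy polysomes with an interval of -0.01 to 0.18. In light polysomes it was 0.03 with an interval of -0.03 to 0.08. With library totals in place of TMM the ratio in light polysomes was -0.06, on the other side of 0.

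CST3 differed between the genotypes in opposite directions in the fractions. It had 2657 counts in labelled knockout heavy and 4832 in wild type heavy polysomes, against 4494 in labelled knockout light and 4244 in wild type light polysomes. The level was lowest in heavy polysomes of the labelled knockout, at 147 CPM (interval 141 to 152), and highest in heavy polysomes of the wild type, at 255 CPM (248 to 263). Light polysomes held 245 CPM (237 to 252) in the labelled knockout and 193 CPM (187 to 199) in the wild type. Its log2 ratio, labelled knockout over wild type, was -0.80 in heavy polysomes with an interval of -0.87 to -0.73. In light polysomes it was 0.34 with an interval of 0.28 to 0.40. Neither reached 2-fold.

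At least 2-fold lower in both fractions were CSTA and SLPI, 2 of the 4 members. Over all 10418 genes 1.2% were lower by this measure and 1.17% higher. The rule that picked the members used this contrast, so nothing is read from the comparison of these shares. Without a second library in any group, the differences between the genotypes have no replicate check.

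**Figure D1:**
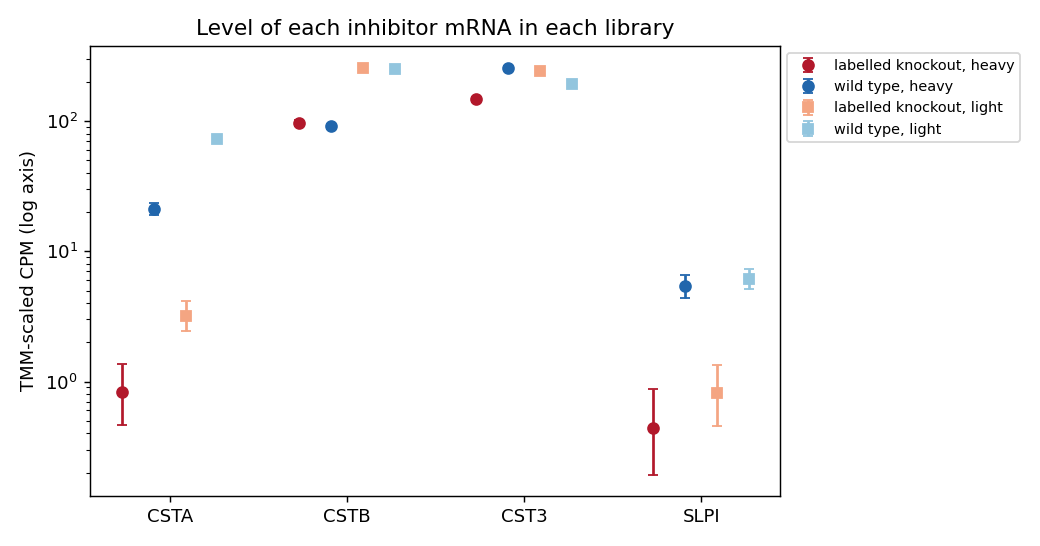
Level of each member in TMM-scaled CPM on a log axis, 1 point per library with its 95% counting interval; circles are heavy and squares light polysomes. CSTA and SLPI sit lower in both libraries labelled knockout than in both wild type libraries, CSTB separates by fraction, and CST3 is lowest at 147 CPM in labelled knockout heavy polysomes.

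**Figure D2:**
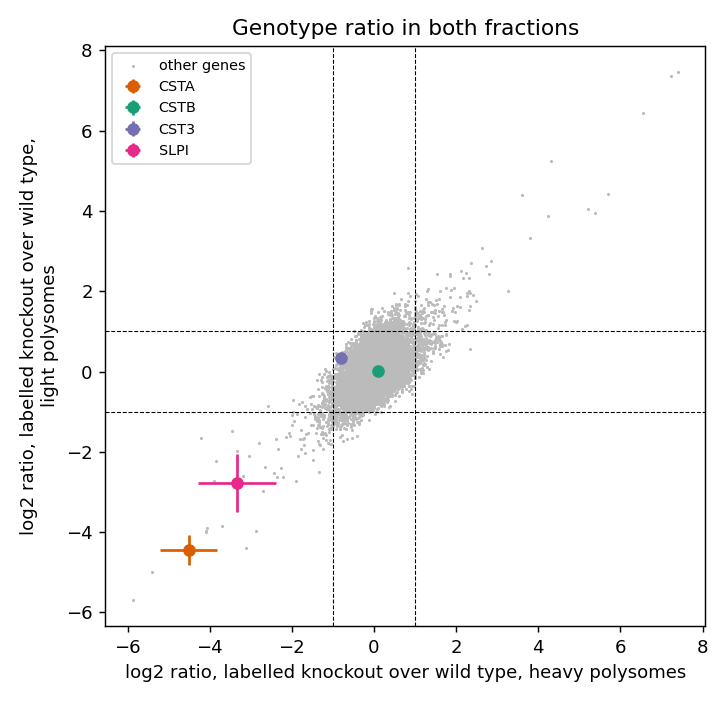
Log2 ratio, labelled knockout over wild type, in heavy polysomes (horizontal) against light polysomes (vertical) for 10418 genes in grey and the 4 members in colour with 95% counting intervals; dashed lines mark 2-fold. CSTA and SLPI lie at the low end of both axes, CSTB near 0, and CST3 left of 0 and above it.

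The order of the 4 libraries differed between the members. For CSTA all 4 counting intervals were separate, with wild type light highest, then wild type heavy, labelled knockout light and labelled knockout heavy polysomes. For SLPI the wild type libraries led, and within each genotype the intervals of heavy and light polysomes overlapped. For CSTB the light libraries led, and within each fraction the intervals of the genotypes overlapped. For CST3 wild type heavy and labelled knockout light polysomes led with overlapping intervals, followed by wild type light and labelled knockout heavy polysomes, which stood apart from each other.

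Levels can be compared between genes only per length. Per kilobase of canonical transcript, light polysomes of the labelled knockout held 435 CPM of CSTB, 308 of CST3, 4.31 of CSTA and 1.37 of SLPI. Light polysomes of the wild type held 427 CPM per kilobase of CSTB, 243 of CST3, 97.3 of CSTA and 10.4 of SLPI. CSTA thus stood below CST3 and CSTB in both genotypes, and SLPI was the lowest member in each of the 4 libraries. In labelled knockout heavy polysomes the CPM intervals of SLPI (0.19 to 0.87) and CSTA (0.46 to 1.37) overlapped, so their order there is uncertain.

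The fraction contrast asked how each mRNA was divided between the fractions relative to other mRNAs. All libraries were scaled to a common size, so the sign of a ratio does not tell which fraction held more molecules. For CSTA, CSTB and SLPI the contrast was not used to pick them and could be tested, with the 2 genotypes as replicates. CST3 was picked for the difference between its 2 heavy to light ratios, so for CST3 these ratios are described and not tested. The test takes its error from such differences over all genes. Its SE hardly followed a gene's own difference, at 0.30 for CST3 and 0.29 for CSTB. CSTA and CSTB lay toward light polysomes. For CSTA, edgeR's quasi-likelihood test gave a log2 heavy over light value of -1.82 (SE 0.30, adjusted p = 2.12e-08). For CSTB the value was -1.43 (SE 0.29, edgeR adjusted p = 6.15e-06). Both ratios pointed to light polysomes in both genotypes. Without the genotype as a block, CSTA was no longer called (edgeR adjusted p = 0.291) and CSTB still was (0.00545). Such a fit counts the genotype difference as error, and CSTA was picked for that difference, so nothing is read from its lost call.

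SLPI was not called toward either fraction. Its fitted log2 ratio of heavy to light polysomes was -0.36 (95% interval -1.08 to 0.36, edgeR adjusted p = 0.405). Such an interval does not mean that the amounts were equal. The fitted value of CST3, -0.16, lies between 2 ratios on opposite sides of 0.

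Toward light polysomes 2 of the 3 members given this test were called, against 29.3% of the 13574 genes tested, and 30.0% of genes were called toward heavy polysomes. Most short mRNAs were light. Of 1036 tested genes whose coding sequence is 500 nucleotides or shorter, 886 (85.5%) were called light and 7 heavy, with a median log2 ratio of -1.23. CSTA and CSTB were below this median, and CST3 and SLPI above it. With library totals in place of TMM, 38.9% of the called genes lay toward heavy polysomes against 50.6%, and the median log2 ratio over all genes was -0.30 against -0.07. The calls of CSTA, CSTB and SLPI were the same with both scalings.

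**Figure D3:**
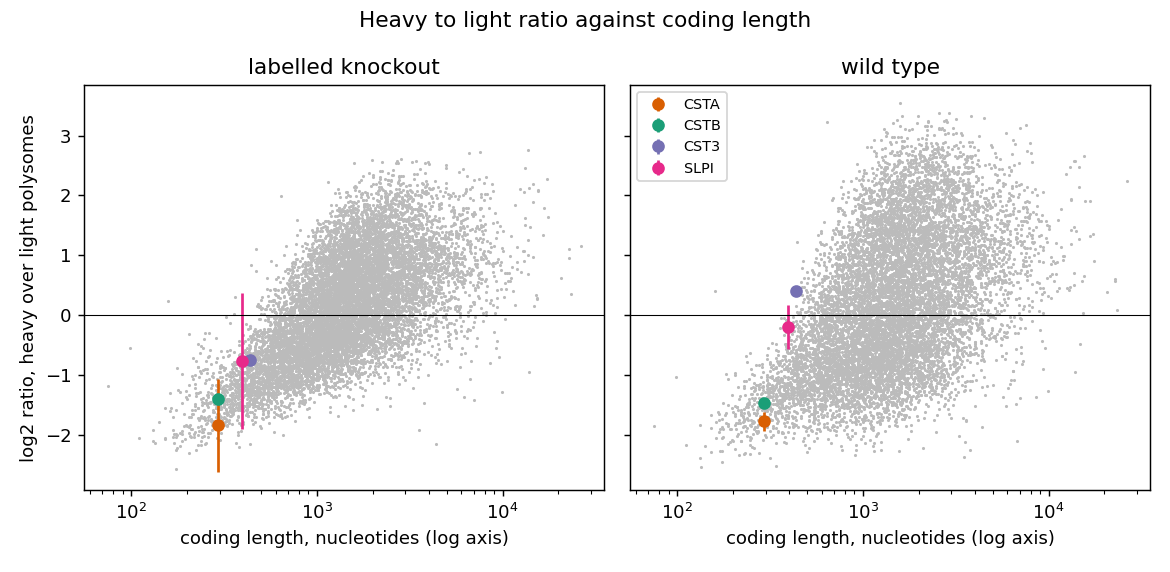
Log2 ratio of heavy to light polysomes against coding length on a log axis, for the labelled knockout (left) and the wild type (right); grey points are genes that reached 50 counts everywhere, coloured points the 4 members with 95% counting intervals. CST3 lies at -0.74 among genes of its length in the labelled knockout, and at 0.41, above nearly all of them, in the wild type.

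Within each genotype the ratios can be given with counting error only. CSTA had log2 heavy to light ratios of -1.83 in the labelled knockout (interval -2.61 to -1.05) and -1.77 in the wild type (-1.92 to -1.61). Those of CSTB were -1.40 in the labelled knockout (-1.48 to -1.32) and -1.46 in the wild type (-1.54 to -1.38). The ratio of CSTA thus differed between the genotypes by less than its counting error, with 15 and 59 counts behind that of the labelled knockout. SLPI had -0.75 in the labelled knockout (-1.89 to 0.38) and -0.19 in the wild type (-0.56 to 0.17), and a difference was not detectable at this depth.

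CST3 lay on the light side in the labelled knockout and on the heavy side in the wild type. Its log2 heavy to light ratio was -0.74 in the labelled knockout (interval -0.81 to -0.67) and 0.41 in the wild type (0.35 to 0.47). With library totals the ratios were -0.90 in the labelled knockout and 0.10 in the wild type, still on opposite sides of 0. The shift, defined as the ratio in labelled knockout cells minus the ratio in wild type cells, was -1.14 (interval -1.23 to -1.05), or 2.21-fold. The shift of CSTB was 0.06 (-0.05 to 0.17). CSTA and SLPI had fewer than 50 counts in a library, below the minimum set for the shift. Their values were -0.06 (-0.86 to 0.73) and -0.56 (-1.75 to 0.63).

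Among the 861 genes with up to 500 coding nucleotides that reached 50 counts everywhere, 0 had a shift below that of CST3. The middle 50% of them, from the lower to the upper quartile, had shifts of -0.29 to 0.25. In the labelled knockout 139 of these 861 genes had a higher heavy to light ratio than CST3, and in the wild type 10 did. The median ratio of these genes was -1.23 in the labelled knockout and -1.24 in the wild type. For the 369 genes of 400 to 500 nucleotides, the class of CST3, it was -1.02 in the labelled knockout and -0.91 in the wild type. For the 278 genes of 300 to 400 nucleotides, the class of SLPI, it was -1.29 in the labelled knockout and -1.25 in the wild type. For the 214 shorter ones, the class of CSTA and CSTB, it was -1.55 in the labelled knockout and -1.63 in the wild type. In both genotypes CSTB lay above the median of this narrower class. CSTA lay below it, but its counting intervals included it, at -2.61 to -1.05 in the labelled knockout and -1.92 to -1.61 in the wild type. By length CSTA and SLPI belong to these classes, but they had too few counts to be among the genes counted. Of the 10834 genes of any length with as many counts, 107 had a shift below that of CST3. The middle 50% of these 10834 genes had heavy to light ratios of -0.57 to 0.79 in the labelled knockout and -0.78 to 1.06 in the wild type. Ratios were thus spread less widely in the labelled knockout over all genes. For the 861 short genes the ranges were -1.51 to -0.90 and -1.55 to -0.85. How far this enters the shift of CST3 or of any other gene named here was not tested.

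A shift of at least 2-fold toward light polysomes, with a counting interval that excluded 0, was seen in CST3, 1 of the 4 members. Over the 10834 genes it was seen in 2.37%, the same toward heavy polysomes in 0.905%, and either in 3.28%. Among the short genes, 2 shifted so toward light and 6 toward heavy polysomes. CST3 was picked for its shift, so its rank is a description. With library totals the shift of CST3 was -0.999, just short of 2-fold, and it was then not counted.

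**Figure D4:**
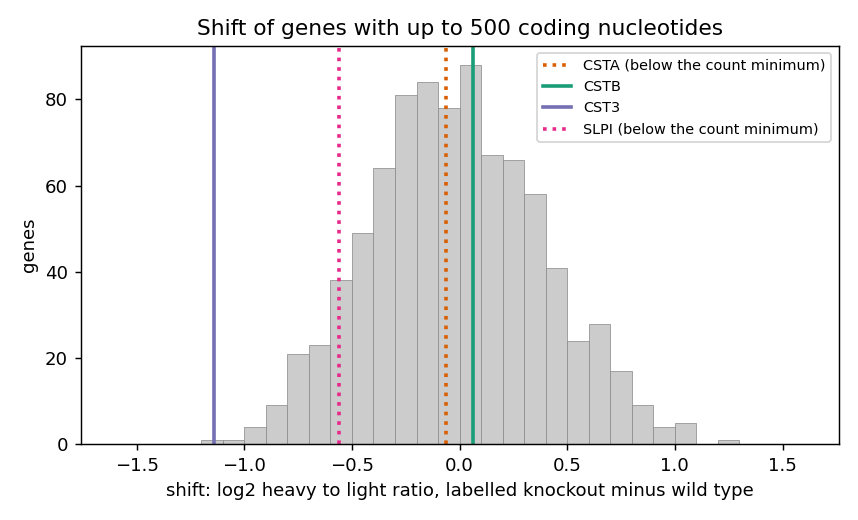
Histogram of the shift, in log2 units, labelled knockout minus wild type, over 861 genes with up to 500 coding nucleotides; vertical lines mark the members, dotted where a library has fewer than 50 counts. CST3 lies at -1.14 at the lower end, and CSTB at 0.06 near the centre.

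The genes whose profile over the 4 libraries was most like that of each member were found by Euclidean distance between mean-centred log2 CPM values, among the 12164 genes that reached 50 counts in any library. For CSTA these were FXYD3, a regulator of the sodium pump (distance 0.90), the interferon-induced IFI27 (0.91) and the noncoding LINC01468 (1.35). FXYD3 had 8 counts in labelled knockout heavy, 132 in wild type heavy, 21 in labelled knockout light and 391 in wild type light polysomes. Its exons share 40.0% of their bases with a gene on the same strand. For SLPI they were the zinc finger gene ZNF585A (0.54), IFITM1 (0.61), an interferon-induced membrane protein with near-identical relatives, and TCP11L2 (0.71). ZNF585A had 2 counts in heavy and 3 in light polysomes of the labelled knockout, against 40 in heavy and 65 in light polysomes of the wild type.

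For CSTB the nearest were the small mitochondrial assembly factor UQCC3 (0.02), the kinetochore subunit SKA2 (0.04) and NUDCD2 (0.04). Over 40.8% of its exon bases, UQCC3 overlaps LBHD1 on the other strand. For CST3 the nearest were SRA1 (0.11), the iron-sulphur cluster scaffold NFU1 (0.15) and the thioredoxin domain protein TXNDC9 (0.15). SRA1 had 1248 counts in labelled knockout heavy, 2173 in wild type heavy, 1897 in labelled knockout light and 1858 in wild type light polysomes. Its shift was -1.03, with a coding sequence of 672 nucleotides. TXNDC9 had a shift of -1.07 and NFU1 of -0.90.

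Other cystatins were few in these cells. Of 15 further family members 9 had a count, 3 could be tested between the fractions and 1, CST6, reached 100 counts in both pairs. CST6 (cystatin M/E), a secreted inhibitor of legumain and cathepsins, had 808 counts in labelled knockout heavy, 1223 in wild type heavy, 1504 in labelled knockout light and 2093 in wild type light polysomes. It was lower in the labelled knockout in both fractions, short of 2-fold. The log2 ratio was -0.53 among heavy polysomes, with an interval of -0.66 to -0.41, and -0.22 among light ones, with an interval of -0.31 to -0.12. It lay toward light polysomes, at -0.71 on the log2 scale (SE 0.27, edgeR adjusted p = 0.0157). The other tested members, AHSG and HRG, were also called light, with no more than 32 counts in a library. Of all genes tested, 29.3% were called light. Among the 4 cystatins with at least 50 counts in each wild type library, CST3 alone had a wild type ratio above 0. It was 0.41 with TMM and 0.10 with library totals. CST3 was picked for a shift that contains this ratio, so this is a description.

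The WAP domain relatives of SLPI were nearly silent. Of 17 genes 11 had a count, 2 were tested and none reached 100 counts in both pairs. WFDC3 had 9 counts in labelled knockout heavy, 18 in wild type heavy, 46 in labelled knockout light and 91 in wild type light polysomes. It was called light at -2.19 on the log2 scale (SE 0.41, edgeR adjusted p = 6.63e-07). The elastase inhibitor PI3 had at most 4 counts.

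The cysteine proteases that cystatins inhibit were compared between the genotypes by the same measure. Over all genes 2.37% were at least 2-fold higher or lower in both fractions. Of 12 genes for cathepsins and legumain, 7 reached 100 counts in both pairs, and none of them differed by this measure. At the share of all genes, none among 7 is likely, so nothing is read from it. Their median log2 ratio, labelled knockout over wild type, was 0.10 in heavy and 0.40 in light polysomes, against -0.04 and 0.03 over all genes. CTSB, the most abundant, had 8821 counts in labelled knockout heavy and 7054 in wild type heavy polysomes, and 6619 in labelled knockout light and 8354 in wild type light polysomes. Its ratios were 0.39 in heavy and -0.07 in light polysomes. LGMN (legumain) stood at 0.26 in heavy and 0.58 in light polysomes, CTSZ at 0.19 in heavy and 0.40 in light polysomes, and CTSL at 0.01 in heavy and -0.25 in light polysomes. CTSZ overlaps NELFCD on the other strand over 31.7% of its exon bases, so its reads may be shared. Between fractions 5 of 9 tested proteases were called heavy and none light, against 30.0% heavy and 29.3% light over all genes. LGMN was at 1.01 (SE 0.27, edgeR adjusted p = 0.000608). Neither this list nor those below were matched to all genes for coding length.

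The serine proteases listed were those that SLPI inhibits or that resemble them. The neutrophil proteases that SLPI is best known for were rare, with ELANE at no more than 1 count. Over all genes 1.17% were at least 2-fold higher and 1.2% lower in both fractions of the labelled knockout. Of 26 listed genes 13 reached 100 counts in both pairs, of which 2 were higher and 1 lower by this measure. Their median log2 ratios were 0.46 in heavy and 0.53 in light polysomes, against -0.04 and 0.03 over all genes. KLK6, a kallikrein, had 2936 counts in labelled knockout heavy and 1235 in wild type heavy polysomes, and 2912 in labelled knockout light and 1049 in wild type light polysomes (log2 ratios 1.31 in heavy and 1.73 in light polysomes). PLAT, the tissue plasminogen activator, had ratios of 1.46 in heavy and 1.65 in light polysomes. PRSS3, a trypsinogen with near-identical relatives and so uncertain, had 199 counts in labelled knockout heavy and 452 in wild type heavy polysomes, and 418 in labelled knockout light and 1245 in wild type light polysomes (-1.11 in heavy and -1.31 in light polysomes). The membrane protease PRSS8 stood at 0.52 in heavy and 1.44 in light polysomes, its relative ST14 at 0.78 in heavy and 0.18 in light, and the urokinase gene PLAU at -0.66 in heavy and -0.13 in light. Between fractions 4 of 15 tested were called heavy and 5 light, against 30.0% heavy and 29.3% light over all genes. Exons of PLAU overlap C10orf55, and exons of KLK6 overlap other genes over 20.5% of their bases, both on the other strand.

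Serpins are the largest family of serine protease inhibitors. Over all genes 1.17% were 2-fold higher in both fractions of the labelled knockout and 1.2% lower. Of 28 serpins 11 reached 100 counts in both pairs, 2 were higher by this measure and none lower. Their median log2 ratios were -0.12 in heavy and 0.35 in light polysomes. SERPINA1, the main inhibitor of neutrophil elastase in blood, had 926 counts in labelled knockout heavy and 267 in wild type heavy polysomes, and 587 in labelled knockout light and 129 in wild type light polysomes (log2 ratios 1.85 in heavy and 2.43 in light polysomes). SERPING1, the inhibitor of complement C1, stood at 1.08 in heavy and 1.89 in light. SERPINB1, a cytosolic inhibitor of neutrophil proteases, was lower, with 2646 counts in labelled knockout heavy and 7046 in wild type heavy polysomes, and 1637 in labelled knockout light and 3013 in wild type light polysomes (-1.35 in heavy and -0.62 in light polysomes). SERPINE2, SERPINB6 and SERPINH1 lay between -0.44 and 0.24. Between fractions 11 of 15 serpins were called heavy and none light, against 30.0% heavy and 29.3% light over all genes. SERPINH1 was at 1.30 (SE 0.28, edgeR adjusted p = 1.62e-05).

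Of 27 Kunitz, Kazal and other inhibitors 13 reached the minimum, and none differed 2-fold in both fractions, against 2.37% of all genes. The median log2 ratios were -0.02 in heavy and 0.39 in light polysomes. Between fractions 6 of 15 tested were called heavy and 2 light, against 30.0% heavy and 29.3% light over all genes. APP, the amyloid precursor with a Kunitz domain in some isoforms, had 19665 counts in labelled knockout heavy and 19192 in wild type heavy polysomes, and 8169 in labelled knockout light and 3512 in wild type light polysomes. Its shift was -1.38 (interval -1.44 to -1.32), and that of its relative APLP2 was -1.10 (-1.17 to -1.02). These were the 2 genes of 13 with a shift of 2-fold or more, both toward light polysomes, against 2.37% of all genes. TIMP1, a secreted metalloprotease inhibitor, had a shift of -0.90 (-0.96 to -0.84), and SPINT2, a membrane Kunitz inhibitor, of 0.12 (0.06 to 0.18).

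Squamous genes, with which CSTA is usually made, were few. Of 24 genes 4 reached 100 counts in both pairs and 1 was 2-fold lower in both fractions, against 1.2% of all genes. This was LCN2, listed here although it is a secreted iron-siderophore binding protein. It had 78 counts in labelled knockout heavy and 835 in wild type heavy polysomes. In light polysomes it had 76 in the labelled knockout and 363 in the wild type (log2 ratios -3.33 in heavy and -1.97 in light polysomes). Its shift was -1.36 (interval -1.84 to -0.87). The envelope protein PPL stood at -0.01 in heavy and 0.59 in light polysomes, EVPL at 0.33 in heavy and 0.60 in light, and KRT10 at 0.00 in heavy and -0.56 in light. Between fractions 4 of 8 tested were called heavy and 2 light, against 30.0% heavy and 29.3% light over all genes. The basal markers KRT5, KRT14 and TP63 had at most 9 counts in any library and KRT1 had 0.

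**Figure D5:**
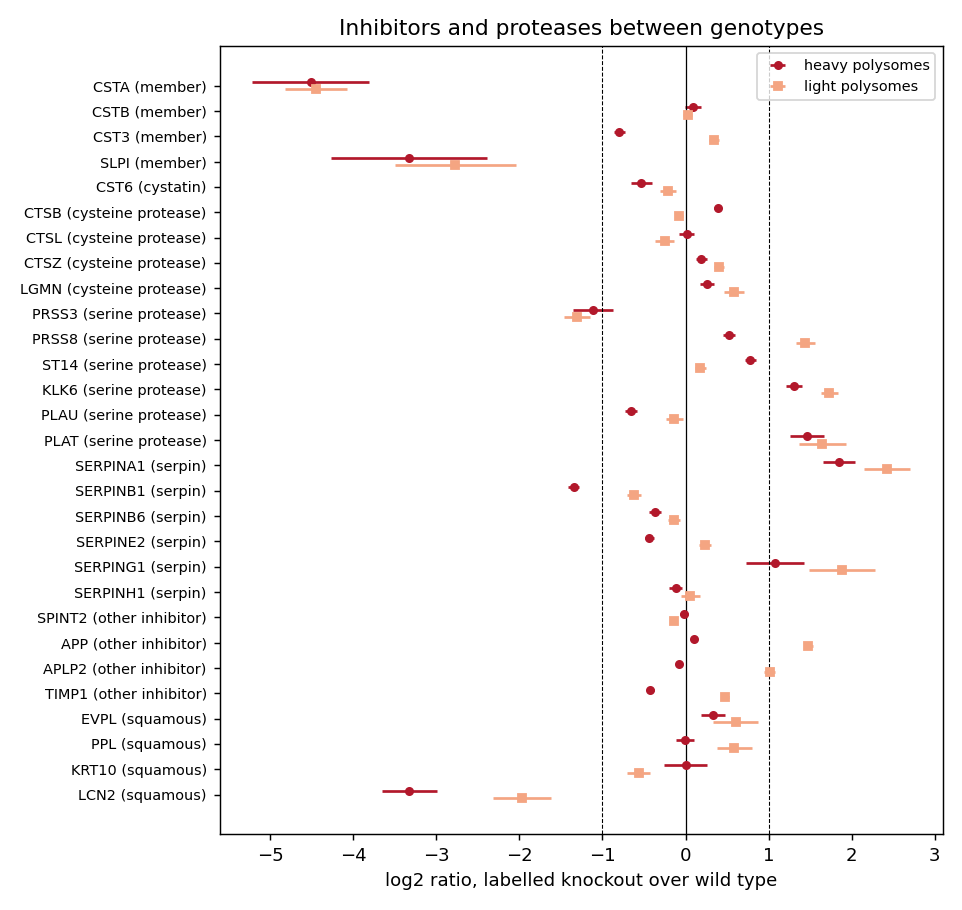
Log2 ratio, labelled knockout over wild type, in heavy (circles) and light polysomes (squares), with 95% counting intervals, for the 4 members and the named inhibitors, proteases and squamous genes that reached 100 counts in both pairs; dashed lines mark 2-fold. CSTA, SLPI and LCN2 lie farthest to the left and SERPINA1 farthest to the right.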

How the data were processed

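RNA of heavy and light polysomes was sequenced in 4 libraries. The authors deposited raw read counts, whole numbers with 1 row per symbol. Per the submitters' processing notes, the tools were CASAVA, STAR and HTSeq and the build hg19. Versions, annotation and any use of strand were not given in the sources. GENCODE release 44 (GRCh38) gave positions and lengths for 22805 symbols directly and for 1374 through RefSeq synonyms, and 2185 were not matched. Counts stayed those made on hg19. Library totals were 17457116 to 20933675.

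Heavy was tested against light with edgeR 4.0.16 (R 4.3.3), with TMM, filterByExpr, the quasi-likelihood test and genotype as block, called at a Benjamini-Hochberg adjusted p under 0.05 over 13574 genes. It had 1 residual degree of freedom, so edgeR shared 1 spread trend across genes. The p-values rest on the disagreement between the genotypes over all genes, and hardly on that of the gene itself. CST3, picked for its own disagreement, is given no p-value. Nothing says that the samples came from separate cultures. Genotype ratios and shifts used a prior count of 2 and 95% counting intervals, with no test. Alternatives were library totals, DESeq2 1.42.0, no filter, no block, no RNA45S5 row and a prior count of 0.5. Genes named were the members, DICER1, the 3 nearest profiles, and list genes that were 2-fold different, shifted or among the 4 most abundant. The members, lists and rules were chosen with earlier results of these data known. Transcripts were compared with blastn 2.17.0, and alignments made with Biopython 1.88. The edgeR step was run on simulated data that held no difference between the genotypes. That run therefore does not tell how far the p-values hold for these libraries. Sequence around the start codons is not reported here.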

Additional observations from a re-analysis of the deposited data

Results flagged for a closer look

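CST3 stood out because its log2 heavy to light ratio pointed in opposite directions in the genotypes, at -0.74 in the labelled knockout and 0.41 in the wild type. The log2 ratio of labelled knockout over wild type likewise had opposite signs in the fractions, at -0.80 in heavy and 0.34 in light polysomes. With 1 library in each group the difference was not tested. CSTA, CSTB and SLPI had ratios on the same side of 0 in both genotypes and both fractions, except that with library totals CSTB stood at -0.0595, labelled knockout over wild type, in light polysomes.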

How the results depend on the processing

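Over 17 results, 91 of 98 alternative values kept their direction and their side of the threshold, or moved by less than the counting interval or the spread between the genotypes. Values that leave out 1 genotype were judged by the spread between the same 2 genotypes, so nearly all had to pass. Nothing is read from those. No call of a fraction changed direction, but 4 values near 0 or averaged over the genotypes changed sign. The shift of CSTA was 0.09 with library totals against -0.06 with TMM, and that of CSTB -0.01 with DESeq2 size factors against 0.06. The others were CSTB in light polysomes and CST3 without the labelled knockout. Without the replicate block, CSTA was no longer called light at a log2 ratio of -1.78 (edgeR adjusted p = 0.291, with a range of 1.84e-09 to 0.291 over its alternatives). That fit counts as error the genotype difference for which CSTA was picked, so nothing is read from the lost call. The block did not change the calls of CSTB and SLPI, and 5040 genes were called without it against 8051. With library totals, CSTB had a log2 ratio, labelled knockout over wild type, of -0.0595 in light polysomes against 0.03 with TMM, and a shift of 0.21. CST3 then had 0.26 in light polysomes and a shift of -0.999, under the 2-fold threshold. The cause was not tested. Leaving out 1 genotype gave heavy to light ratios with no test, of -1.83 to -1.77 for CSTA, -1.46 to -1.40 for CSTB, -0.74 to 0.41 for CST3 (-0.16 with both genotypes) and -0.75 to -0.19 for SLPI. Depth limits SLPI and CSTA, with 8 to 59 counts in the libraries labelled knockout. The numbers in the labels pair no samples, and the block was the genotype.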

Other observations

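A few genes outside the naming rule were chosen after their values were seen. SERPINF2, the inhibitor of plasmin, had 15 counts in labelled knockout heavy and 70 in wild type heavy polysomes, and 15 in labelled knockout light and 114 in wild type light polysomes. Its log2 ratios, labelled knockout over wild type, were -2.03 (interval -2.79 to -1.26) and -2.52 (-3.26 to -1.79), with too few counts in heavy polysomes for the minimum of 100. CTSH, a lysosomal aminopeptidase that cystatins inhibit, had ratios of 0.10 (-0.03 to 0.22) in heavy and 1.07 (0.90 to 1.23) in light polysomes. CTSV, a cathepsin of thymus and squamous epithelium, had 0.08 (-0.05 to 0.20) and 0.98 (0.75 to 1.20). Their shifts were -0.97 and -0.90, on the same side as that of CST3. Those of CTSB, 0.46 (0.40 to 0.53), and CTSL, 0.26 (0.11 to 0.42), were on the other side. The median shift of the 7 cysteine proteases with enough counts was -0.32, against -0.05 over all genes. These differences have no replicate check.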
